A study of Mus musculus with 6 samples.

Results

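The 41 genes described here carry out DNA replication, control entry into S phase or act in mitosis. They were taken as a list of gene symbols by a rule that uses no measured value, and all 41 were found among the 55376 genes of the count and FPKM tables. The list itself was chosen with earlier results of these data known. By known function, 19 encode replication proteins (16 act in origin licensing or at the fork and 3 supply nucleotides), 10 regulate the G1/S transition and 12 act in mitosis. Their levels were measured in 6 RNA libraries from satellite cells (SCs), the stem cells of skeletal muscle, of C57BL/6 mice aged 3 months. RNA was precipitated with an antibody against CPEB1, an RNA-binding protein (CPEB1 IP, n = 2), or with control IgG (n = 2), and total RNA of the input was also sequenced (n = 2). The IgG libraries were deposited apart from the input and CPEB1 IP libraries. The labels name no batch, so a batch difference between IgG and the other groups cannot be told apart from the antibody. The cells were sorted from hindlimb muscle by surface markers (CD31- CD45- Sca1- Vcam1+) and used fresh. All groups share strain and age, no group carries an engineered allele or a treatment, and the antibody acted on the cells' own CPEB1. Since nothing in the labels says whether the libraries of a group came from separate mice or pools, p-values below measure the spread between these libraries.

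A dividing cell first licenses its origins: the origin recognition complex (ORC), Cdc6 and Cdt1 load the MCM helicase onto DNA before S phase, and cyclin E with Cdk2 then fires it. Transcription factors of the E2F family switch on most of these genes, while the genes of mitosis, such as cyclin B and Aurora kinases, are switched on later, in G2. Satellite cells of resting muscle lie outside the cycle and can enter it again after injury or isolation. CPEB1 binds cytoplasmic polyadenylation elements (CPEs), brief uridine-rich sequence elements of mRNA 3′ ends, and is best known for the control of cyclin B1 mRNA translation in maturing oocytes.

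Counts on genes ranged from 1284716 to 1359052 for IgG, from 3270067 to 3314547 in the input and from 2564323 to 4941653 in the CPEB1 IP. Against the total that the authors' FPKM use as denominator, those counts came to between 39.1% and 39.6% in IgG and to between 69.5% and 79.8% in the other 4 libraries. All 10 satellite cell markers exceeded 1 FPKM in every library, and Pax7, the transcription factor that defines these cells, stood at 39.8 and 46.0 FPKM in the input. The transcripts behind the negative sort markers were low in the input: Ptprc (CD45) had 0 and 1 counts, Pecam1 (CD31) 57 and 38 counts and Ly6a (Sca1) 31 and 22 counts. The 6 endothelial markers summed to between 39.0 and 54.6 CPM (counts scaled to library size with TMM factors) in the input, to between 204 and 218 in IgG and to between 275 and 296 in the CPEB1 IP. The 8 leukocyte markers summed to between 25.2 and 39.6 CPM in the input, 85.1 and 86.0 in IgG, and 61.2 and 72.5 in the CPEB1 IP. The part of these cell types in the results below was not tested, and in bulk RNA fewer cells of a type cannot be told apart from less RNA per cell.

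In the input, most of the 19 replication genes were present while most of the 12 mitotic genes were close to absent. The median FPKM of the 19 replication genes was 4.78 and 5.71 in the 2 input libraries, against 2.13 and 2.04 for the 10 G1/S regulators and 0.44 and 0.55 for the 12 mitotic genes. At least 1 FPKM was reached by 15 and 17 of the 19 replication genes, by 8 of the 10 G1/S regulators in either library and by 3 and 4 of the 12 mitotic genes. The replication median was thus 11.0 and 10.3 times the mitotic median, and the mitotic genes together drew 227 and 228 counts where the replication genes drew 2352 and 2750. Among genes outside these lists the gap was smaller. The median of 39 other replication genes was 1.63 and 1.27 FPKM, against 0.38 and 0.42 for 43 other mitotic genes. Those other replication genes drew 1687 and 1597 counts, and the other mitotic genes a similar 1581 and 1656. The size of the gap thus depended on the genes listed. FPKM are levels per gene length, and these comparisons carry no test, because genes are not replicates.

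**Figure D1:**
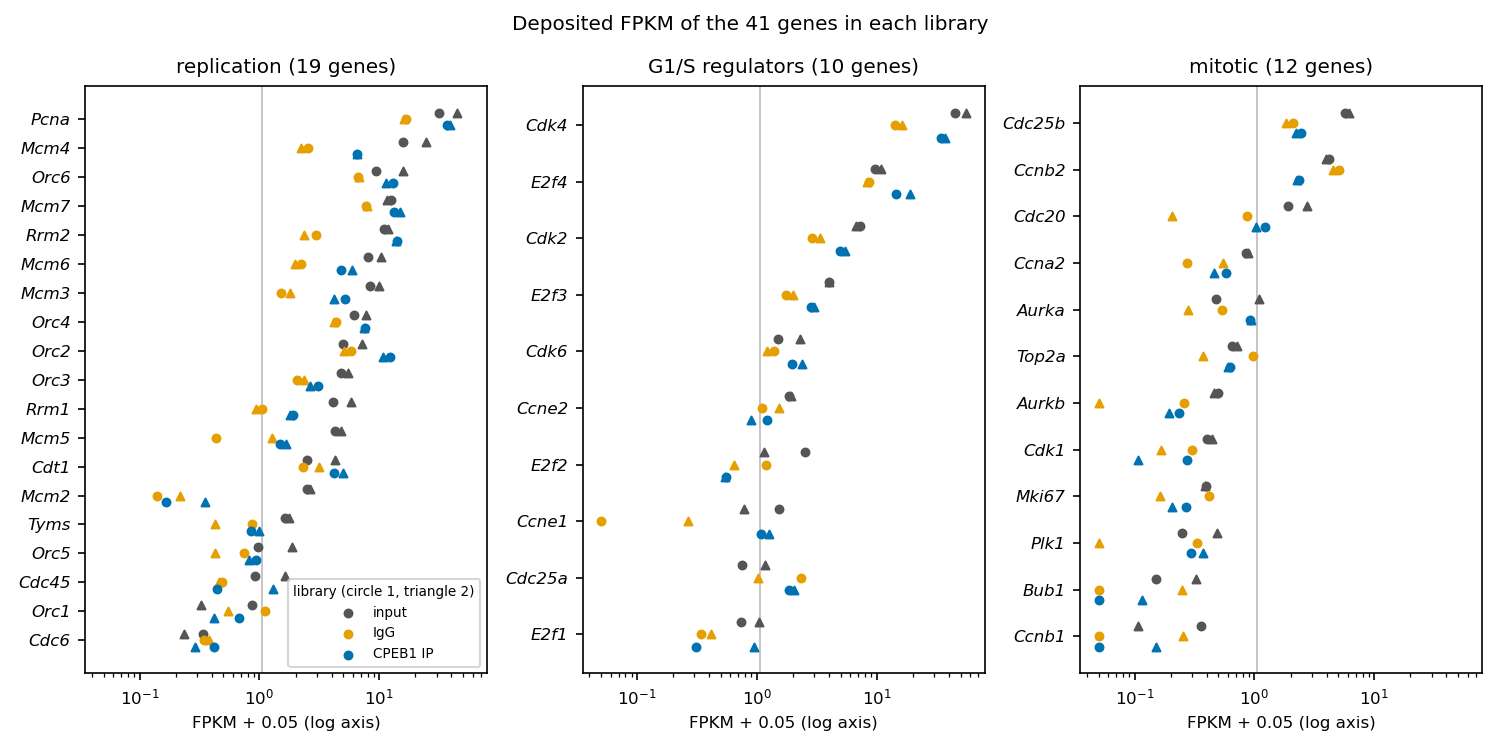
FPKM of each of the 41 genes (x axis, FPKM + 0.05 on a log axis) in the 2 input, 2 IgG and 2 CPEB1 IP libraries, with genes ordered by mean input FPKM inside each functional group and a grey line at 1 FPKM. Replication genes spread from Pcna near the top of the scale down to Cdc6, and in the input no more than 4 of the 12 mitotic genes pass 1 FPKM.

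Cdk4, the kinase that cyclin D activates in G1, was the most abundant of the 41 at 45.1 and 55.7 FPKM in the input. Pcna, the sliding clamp of DNA polymerases, followed at 31.4 and 44.1 FPKM, and Mcm4, a subunit of the replicative helicase, at 15.7 and 24.7 FPKM. Each of these 3 lay above the next gene in both libraries without overlap. Below them, Orc6, Mcm7, Rrm2 (the small subunit of ribonucleotide reductase) and E2f4 (an E2F repressor of resting cells) lay between 9.24 and 15.6 FPKM. Over the whole order of 41, only 10 neighbouring pairs did not overlap between their 2 libraries, so the exact order further down is not resolved.

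The licensing factors that bring the helicase to origins were unequal. Orc2 to Orc4 and Orc6, which belong to the complex that marks origins, lay between 4.78 and 15.6 FPKM, whereas Orc5 had 0.92 and 1.84 FPKM and Orc1, its largest subunit, 0.81 and 0.28 FPKM. Cdt1, the loader of MCM, stood at 2.42 and 4.22 FPKM. Cdc6, its partner, had 7 and 4 counts in the input and at most 9 in any library, and it passed the filter on low counts in no comparison. Cdc45, which joins MCM in the active helicase, had 0.87 and 1.58 FPKM.

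Among the 6 helicase subunits, which assemble in equal number, the transcripts were not equal: Mcm4 had 6.44 and 9.51 times the FPKM of Mcm2, and Mcm7 had 5.14 and 4.42 times. Mcm2 stood at 2.44 and 2.60 FPKM in the input, Mcm5 at 4.19 and 4.71, Mcm3 at 8.34 and 9.95, Mcm6 at 8.01 and 10.3 and Mcm7 at 12.5 and 11.5. The Mcm7 gene holds 3 microRNA genes and overlaps the ends of Ap4m1 and Cops6, so some of its reads could belong to a neighbour. Cdk4 likewise overlaps Tspan31, and Ccne2 overlaps Ints8.

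On the mitotic side, Cdc25b, the phosphatase that activates Cdk1, was highest at 5.65 and 6.14 FPKM, followed by Ccnb2 (cyclin B2) at 4.12 and 3.93 and Cdc20, an activator of the anaphase-promoting complex, at 1.86 and 2.71. Ccnb1, encoding cyclin B1, had 6 and 1 counts in the input, 0 and 3 in IgG and 0 and 3 in the CPEB1 IP. A count of 0 allows up to 3 counts, or 2.28 CPM in the first IgG library and 1.25 CPM in the first CPEB1 IP library, so the files cannot say whether CPEB1 held any Ccnb1 mRNA. Cdk1, the mitotic kinase itself, had 8 counts in each input library and between 2 and 4 in the others. Mki67, the source of the Ki-67 proliferation antigen, had 16 and 14 counts in the input and 0.35 and 0.34 FPKM. Top2a, the topoisomerase that untangles sister chromatids, had 25 counts in each input library, and Ccna2 (cyclin A2) 15 and 14. Of the 12 mitotic genes, 5 (Ccnb1, Cdk1, Plk1, Aurkb and Bub1) passed the filter in no comparison.

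The 2 blocks also differed in promoter motifs. RefSeq promoter windows (GRCm38.p6, 250 bases before to 50 after the start site) were found for 36 of the 41; Aurkb, Ccna2, Ccne2, E2f4 and Mcm4 had no entry. An E2F motif (TTTCGCGC, TTTGGCGC, TTTCCCGC or TTTGCCGC, either strand) lay in 8 of 18 replication promoters, 4 of 8 G1/S promoters and 1 of 10 mitotic promoters, against 2.61% of all 27025 genes with an entry and 4.59% of those tested in CPEB1 IP against IgG. A cell cycle homology region (CHR, TTTGAA on either strand), known from promoters of G2 genes, lay in 2 of 18, 2 of 8 and 7 of 10, against 20.2% of all genes and 1247 of 8906 tested genes, and a CCAAT box, on either strand, in 13 of 18, 4 of 8 and 10 of 10, against 41.1% and 42.4%. Cdk1 was the mitotic gene with an E2F motif, and no motif contains another. The motifs were chosen after the expression values had been seen, and a match is a string in the window rather than a bound site. The following 8 windows hold 30 bases around the motif, from 5′ to 3′ on the gene's strand, for 4 replication genes (E2F motif in capitals) and 4 mitotic genes (CHR in capitals). They are shown as examples of the motif found more often in each block.
Mcm3, chr1:20820275-20820304, minus strand: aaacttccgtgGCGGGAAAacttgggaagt
Mcm5, chr8:75109349-75109378, plus strand: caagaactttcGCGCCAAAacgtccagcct
Mcm6, chr1:128359734-128359763, minus strand: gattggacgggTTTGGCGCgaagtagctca
Mcm7, chr5:138171849-138171878, minus strand: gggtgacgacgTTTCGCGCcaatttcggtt
Ccnb2, chr9:70421533-70421562, minus strand: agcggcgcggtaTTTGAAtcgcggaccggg
Cdc20, chr4:118437344-118437373, minus strand: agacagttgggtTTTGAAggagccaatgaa
Plk1, chr7:122159453-122159482, plus strand: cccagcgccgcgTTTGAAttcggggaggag
Aurka, chr2:172370521-172370550, minus strand: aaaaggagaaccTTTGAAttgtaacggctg

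**Figure D2:**
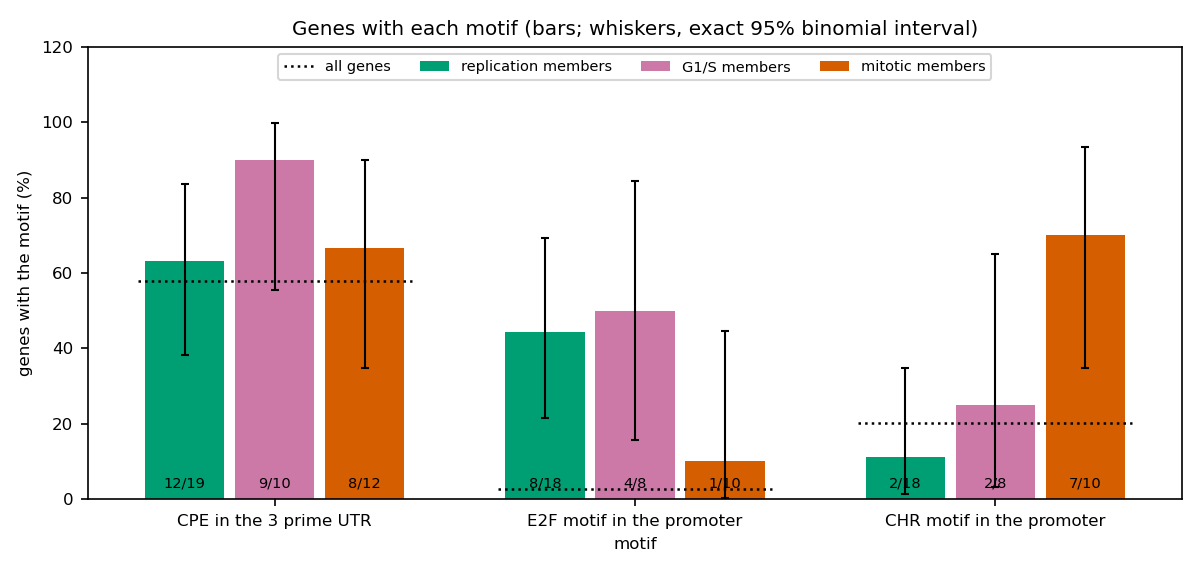
Share of replication, G1/S and mitotic genes (bars, % of genes with an annotated 3′ UTR or a promoter entry, counts printed at the base) that hold a CPE, an E2F motif or a CHR, with exact 95% binomial intervals as whiskers and the share of all genes as dotted lines. The E2F bars of replication (8 of 18) and G1/S genes (4 of 8) stand far above the dotted line, the CHR bar is tallest for mitotic genes (7 of 10), and the CPE intervals overlap one another. The E2F intervals of replication (21.5% to 69.2%) and mitotic genes (0.25% to 44.5%) overlap too.

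In the precipitates many of the mitotic genes lay within the range of genes that the input did not show at all. To describe that range, 4885 protein-coding genes of at least 1000 bases with 0 counts in either input library were taken: in IgG 69.6% and 69.5% of them had a count, with a 95th percentile of 0.72 FPKM in each library, and in the CPEB1 IP 42.0% and 56.5%, with 0.28 and 0.25 FPKM. In IgG, 8 and 10 of the 12 mitotic genes lay at or below that level, and in the CPEB1 IP 6 and 5, compared with 5 and 6 of the 19 replication genes in IgG and 1 in either CPEB1 IP library. The ratio of the replication to the mitotic median was 6.25 and 9.49 in IgG and 10.7 and 11.4 in the CPEB1 IP.

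CPEB1 IP against IgG asks which transcripts the CPEB1 antibody recovered beyond control beads. Of the 41 genes, 26 passed the filter. Higher in the CPEB1 IP were Rrm2, Mcm4, Cdk4 and Pcna, 4 of 26 or 15.4%, beside 14.7% of all 12124 genes tested. Lower were Ccnb2, E2f2 and Ccne2, 3 of 26 or 11.5%, beside 18.7% of all genes tested. Only in IgG, where they were high, did these 3 reach the filter's level in both libraries of a group. Their lower calls are therefore not independent of the filter. In this fit the share of members called in either direction is near or below that of all genes, and the median log2 fold change of the 26 was -0.00, against -0.01 for all genes. By block, 3 of 15 tested replication genes were higher and 0 lower, 1 of 8 G1/S regulators was higher and 2 lower, and 0 of 3 tested mitotic genes were higher and 1 lower. For the counts of 0, edgeR at an unadjusted p under 0.05 also gave 0 in both cases, and DESeq2 called 0. Among all genes the split of calls depended on the tool: 44.0% of calls were higher in edgeR, 72.7% in DESeq2 and 60.1% in edgeR without the filter on low counts. DESeq2 called 5 of the 37 members with an adjusted p higher and 1 lower, beside 13.6% and 5.12% of all genes. The unfiltered fit called 9 of 41 higher and 1 lower, beside 8.36% and 5.56%.

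**Figure D3:**
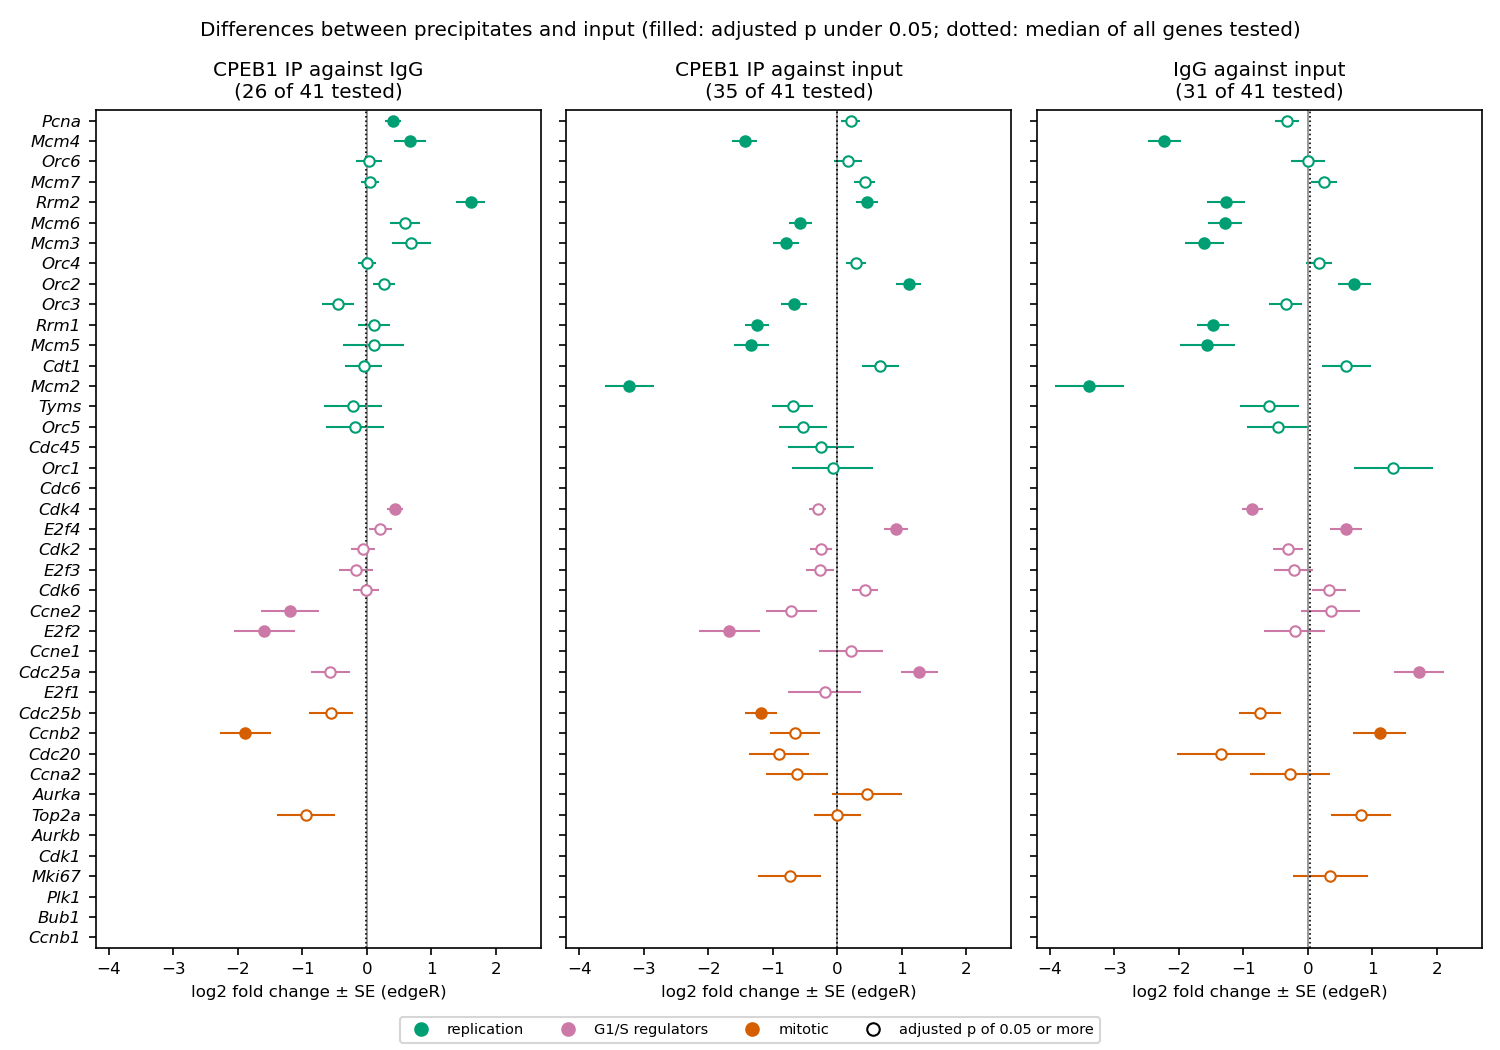
Log2 fold change with its standard error (x axis, edgeR) of each of the 41 genes tested in CPEB1 IP against IgG (26 genes), CPEB1 IP against input (35) and IgG against input (31), filled where the adjusted p is under 0.05, with n = 2 libraries per group. Rrm2 lies farthest to the right against IgG, while Mcm2 lies farthest to the left against input for both precipitates.

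Rrm2 (chr12:24708241-24714146, plus strand, mm10) showed the largest excess over IgG among the 41. Its level was 59.2 and 55.5 CPM in the CPEB1 IP, 19.7 and 16.0 CPM in IgG and 43.0 and 42.8 CPM in the input, so the 3 groups did not overlap. The log2 fold change over IgG was 1.61 ± 0.23 (SE, n = 2 per group, edgeR quasi-likelihood test, Benjamini-Hochberg adjusted p = 3.22e-05). It stayed called under all 9 alternatives, where the adjusted p ran from 5.48e-11 to 0.00107. Against the input, the CPEB1 IP excess was 0.46 ± 0.17 (edgeR adjusted p = 0.0497), and 8 of 9 alternatives lost that call: leaving out input replicate 1 gave 0.0569, CPEB1 IP replicate 1 gave 0.291 and CPEB1 IP replicate 2 gave 0.282. IgG lay below the input by a log2 difference of -1.26 ± 0.30 (adjusted p = 0.000725).

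Rrm1, the large subunit of the same enzyme, went another way. It had 31.2 and 28.1 CPM in the CPEB1 IP, beside 27.3 and 24.8 in IgG and 62.6 and 82.2 in the input. Both precipitates lay below the input, and the small excess of the CPEB1 IP over IgG was not called (log2 fold change 0.11 ± 0.25, adjusted p = 0.773, edgeR). Within single libraries the ratio of Rrm2 to Rrm1 FPKM was 2.73 and 2.07 in the input, 2.87 and 2.57 in IgG and 7.52 and 7.86 in the CPEB1 IP. Tyms, thymidylate synthase, had 7.50 and 8.46 CPM in the CPEB1 IP and 12.2 and 5.83 in IgG, with a log2 fold change of -0.21 ± 0.45.

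The other 3 genes above IgG moved by less. Cdk4 had 170 and 176 CPM in the CPEB1 IP, against 112 and 132 in IgG and 207 and 236 in the input, and the log2 fold change over IgG was 0.44 ± 0.12 (adjusted p = 0.00815). Pcna had 135 and 136 CPM in the CPEB1 IP, beside 98.0 and 97.6 in IgG and 106 and 138 in the input, with 0.41 ± 0.13 over IgG (adjusted p = 0.0157). Mcm4 had 35.4 and 34.3 CPM in the CPEB1 IP, against 22.03 and 19.7 in IgG and 79.5 and 116 in the input, with 0.67 ± 0.25 over IgG (adjusted p = 0.0423). In each of the 3, both CPEB1 IP libraries lay above both IgG libraries, and Cdk4 and Mcm4 stayed below both input libraries. These calls were lost when some single libraries were left out, while the estimates stayed close to those above and the standard errors grew. Without CPEB1 IP replicate 2 the log2 fold change was 0.44 for Cdk4, 0.43 for Pcna and 0.72 for Mcm4. Without CPEB1 IP replicate 1 it was 0.45 for Pcna and 0.69 for Mcm4, and without IgG replicate 2 it was 0.64 for Mcm4. Mcm3 and Mcm6 had estimates of similar size, 0.69 ± 0.30 and 0.59 ± 0.24, at adjusted p = 0.0867 and 0.0624. Of the markers, 6 of 10 satellite cell genes, 3 of 6 fibro-adipogenic genes and 1 of 6 endothelial genes were likewise higher than IgG, beside 14.7% of all genes. Of 5 myofiber genes tested, 1 (Acta1) was higher and 1 (Ttn) was lower. The part of these cell types here was not tested.

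Below IgG lay Ccnb2 (chr9:70407692-70421547, minus strand), with 5.42 and 4.95 CPM in the CPEB1 IP, beside 18.99 and 17.5 in IgG and 8.90 and 7.87 in the input. The 3 groups were apart, the log2 fold change was -1.88 ± 0.39 (adjusted p = 0.00103, edgeR), and all 9 alternatives kept it, with adjusted p between 0.000283 and 0.0188. Here it was IgG that stood above the input, by 1.11 ± 0.41 (adjusted p = 0.0289). That call was lost under DESeq2 (adjusted p = 0.364) and with no filter on low counts (0.146). It was also lost without input replicate 2 (log2 difference 1.01), IgG replicate 1 (1.04) or IgG replicate 2 (1.15). The CPEB1 IP was not detectably below the input (-0.65 ± 0.39, adjusted p = 0.217).

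E2f2, an activating E2F, had 3.75 and 3.51 CPM in the CPEB1 IP, against 13.7 and 7.28 in IgG and 16.9 and 6.93 in the input. It lay below IgG by -1.59 ± 0.47 (adjusted p = 0.0129) and below the input by -1.67 ± 0.48 (adjusted p = 0.0175). The IgG call was lost under DESeq2 (adjusted p = 0.175) and with no filter on low counts (0.152). It was also lost without IgG replicate 1 (log2 fold change -1.02), CPEB1 IP replicate 1 (-1.59) or CPEB1 IP replicate 2 (-1.50). The input call was lost under DESeq2 (adjusted p = 0.0601) and without input replicate 1 (log2 fold change -0.90). Ccne2 (cyclin E2) had 6.25 and 4.34 CPM in the CPEB1 IP and 9.11 and 13.1 in IgG (-1.19 ± 0.45, adjusted p = 0.0465). Of 9 alternatives, 8 lost the Ccne2 call, among them DESeq2 (adjusted p = 0.330) and no filter on low counts (0.347). Leaving out any of the 4 libraries also ended it, with log2 fold changes from -1.38 to -0.86. Of the 4 leukocyte markers tested, Ptprc, Csf1r and Cd68 were also lower in the CPEB1 IP than in IgG and Lyz2 was higher, and their part in these calls was not tested.

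The study's own criterion for a CPEB1-associated transcript joins a test with an FPKM ratio, CPEB1 IP over IgG, above 2 in each experiment, and here 1 was added to each FPKM. With edgeR as the test, Rrm2, Cdk4, Pcna and Mcm4 met it, 4 of the 26 tested or 15.4%, beside 12.1% of all genes tested. Their ratios in the 2 experiments were 3.85 and 4.46 for Rrm2, 2.35 and 2.22 for Cdk4, 2.16 and 2.33 for Pcna and 2.14 and 2.37 for Mcm4. Mcm3 (2.49 and 1.87) and Ccne1 (2.02 and 1.82) passed in the first experiment only, and Mcm6 (1.80 and 2.37) and E2f4 (1.62 and 2.16) in the second only. On the deposited FPKM, whose denominator is larger than the counts on genes, the median ratio of all 12124 genes was 1.45 and 1.52 (log2 0.54 and 0.61). With TMM library sizes instead, that median was 0.99 in each experiment and the genes that met the criterion fell from 1464 to 56 over the whole table, of which Rrm2 was the only member, at 2.64 and 2.98, while Cdk4 fell to 1.44 and 1.27, Pcna to 1.31 and 1.33 and Mcm4 to 1.46 and 1.56. Leaving out CPEB1 IP replicate 1 left Rrm2 and Cdk4, 2 genes, and leaving out CPEB1 IP replicate 2 left 1, Rrm2.

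**Figure D4:**
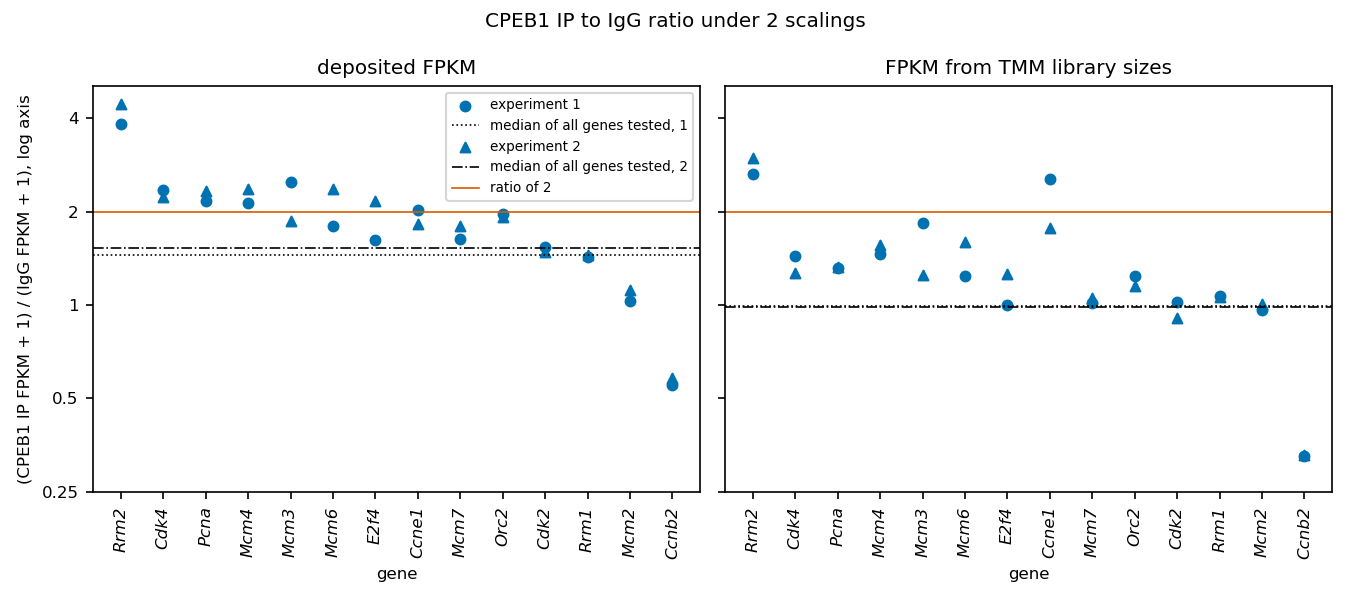
Ratio of CPEB1 IP to IgG FPKM, each plus 1 (y axis, log axis), in the 2 experiments for 14 of the 41 genes, from the deposited FPKM (left) and from FPKM recomputed with TMM library sizes (right). With the second scaling the median of all genes (dotted and dash-dotted lines) drops from near 1.5 to near 1, and of the 4 genes above 2 in both experiments on the left only Rrm2 remains there on the right.

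CPEB1 IP against input compares the precipitate with the RNA that went in, and IgG against input does the same for control beads, sharing the input libraries. In the first, 35 of the 41 were tested: 4 or 11.4% were higher, beside 17.0% of all 12171 genes, and 9 or 25.7% were lower, beside 15.8%. In the second, 31 were tested: 4 or 12.9% were higher, beside 21.4% of all 12980 genes, and 8 or 25.8% were lower, beside 19.4%. Replication genes made up 7 of 9 lower calls in the CPEB1 IP and 7 of 8 in IgG, and 18 of the 35 and 17 of the 31 genes tested. Their median log2 difference was -0.39 over 18 tested genes in the CPEB1 IP and -0.47 over 17 in IgG, where the medians of all genes were -0.00 and 0.03. Lower calls were not particular to these genes. Of 10 satellite cell markers, 5 were lower and 1 higher than input in the CPEB1 IP, and 7 lower and 1 higher in IgG. Of 6 endothelial markers, 6 were higher in the CPEB1 IP and 5 in IgG, and 0 were lower. The part of cell types in these differences was not tested.

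Of the 6 helicase subunits, 5 were lower than input in both precipitates, and Mcm7 was lower in neither. Mcm2 (chr6:88883474-88898780, minus strand) had 78 and 75 counts in the input, 2 and 4 in IgG and 3 and 15 in the CPEB1 IP, or 23.9 and 23.6, 1.52 and 2.91, and 1.25 and 3.10 CPM. Its log2 difference from input was -3.22 ± 0.39 in the CPEB1 IP (adjusted p = 6.58e-05) and -3.38 ± 0.53 in IgG (adjusted p = 2.74e-06), both kept under all 9 alternatives. This was the largest difference of any member in either comparison, and no precipitate library came near an input library.

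Mcm4 lay below input by -1.43 ± 0.19 in the CPEB1 IP (adjusted p = 0.000146) and by -2.22 ± 0.25 in IgG (adjusted p = 5.81e-09). Mcm5 had 23.6 and 24.6 CPM in the input, 8.75 and 9.50 in the CPEB1 IP (-1.33 ± 0.27, adjusted p = 0.00253) and 3.798 and 12.4 in IgG (-1.56 ± 0.43, adjusted p = 0.0033). The Mcm5 call in IgG was lost under DESeq2 (adjusted p = 0.078) and without IgG replicate 1 (log2 difference -0.98). Mcm3 had 44.2 and 48.8 CPM in the input, 29.6 and 22.9 in the CPEB1 IP and 13.7 and 16.8 in IgG, and Mcm6 had 52.8 and 63.0, 33.7 and 40.5, and 25.1 and 22.6 CPM. The differences of these 2 in the CPEB1 IP were -0.80 ± 0.20 (adjusted p = 0.00957, 0.169 without CPEB1 IP replicate 2) and -0.57 ± 0.18 (adjusted p = 0.0296). This Mcm6 call was lost under DESeq2 (adjusted p = 0.102). It was also lost without input replicate 2 (log2 difference -0.45), CPEB1 IP replicate 1 (-0.45) or CPEB1 IP replicate 2 (-0.76).

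Mcm7 stood apart from its partners, with 78.3 and 66.4 CPM in the input, 84.3 and 88.1 in IgG and 89.6 and 97.2 in the CPEB1 IP. Its differences from input were not called (0.42 ± 0.16 in the CPEB1 IP, adjusted p = 0.0552, and 0.25 ± 0.20 in IgG, adjusted p = 0.328). In counts, Mcm7 exceeded Mcm2 by 3.27 and 2.81 times in the input, by 55.5 and 30.3 times in IgG and by 71.7 and 31.4 times in the CPEB1 IP, so the change of composition appeared with either antibody. Rrm1 followed the lower subunits, at -1.24 ± 0.19 in the CPEB1 IP (adjusted p = 0.000358) and -1.47 ± 0.25 in IgG (adjusted p = 9.58e-06).

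**Figure D5:**
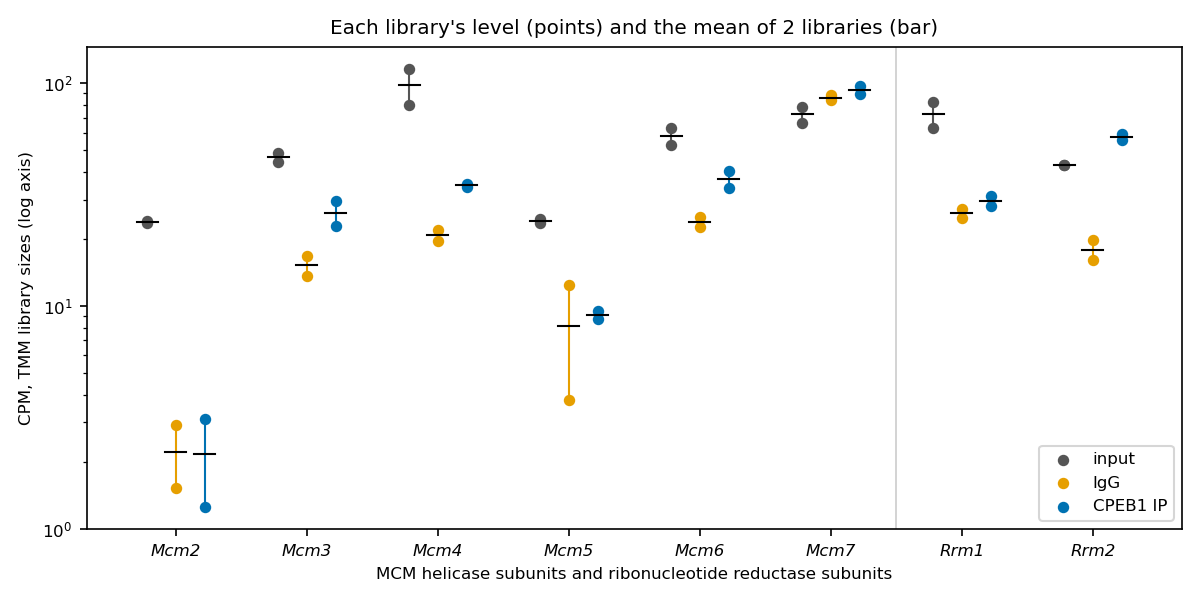
CPM with TMM library sizes (y axis, log axis) of the 6 MCM helicase subunits and the 2 ribonucleotide reductase subunits in each input, IgG and CPEB1 IP library (points) with the mean of 2 libraries (black bar). Mcm2 drops from about 24 CPM in the input to at most 3.10 CPM in any precipitate, Mcm7 stays level, and Rrm2 is the only one of the 8 called above IgG in the CPEB1 IP and not called below input there.

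Outside the helicase, the origin recognition subunits split. Orc2 had 27.0 and 36.2 CPM in the input, 54.7 and 49.5 in IgG and 72.1 and 60.5 in the CPEB1 IP. It was higher than input by 1.11 ± 0.19 in the CPEB1 IP (adjusted p = 0.000907, kept under all 9 alternatives) and by 0.72 ± 0.25 in IgG (adjusted p = 0.0204). The IgG call was lost under DESeq2 (adjusted p = 0.360) and with no filter on low counts (0.232). It was also lost without input replicate 1 (log2 difference 0.55), IgG replicate 1 (0.63) or IgG replicate 2 (0.77). Orc3 was lower in the CPEB1 IP, with 28.3 and 23.3 CPM against 41.1 and 42.8 (-0.67 ± 0.20, adjusted p = 0.0227). The Orc3 call was lost under DESeq2 (adjusted p = 0.101) and without CPEB1 IP replicate 1 or 2 (log2 differences -0.78 and -0.55). Orc4, Orc5 and Orc6 were called in no comparison, nor was Cdt1, the MCM loader, with 35 and 55 counts in the input, 23 and 34 in IgG and 48 and 109 in the CPEB1 IP.

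Of the G1/S regulators, Cdc25a, the phosphatase that frees Cdk2, and E2f4 were higher than input with either antibody. Cdc25a had 7.98 and 11.7 CPM in the input, 45.6 and 19.7 in IgG and 22.1 and 23.5 in the CPEB1 IP. Its log2 difference from input was 1.27 ± 0.29 in the CPEB1 IP (adjusted p = 0.00461) and 1.72 ± 0.38 in IgG (adjusted p = 0.000395). The Cdc25a call in IgG was lost under DESeq2 (adjusted p = 0.0612) and without IgG replicate 1 (log2 difference 0.98). E2f4 had 33.1 and 34.6 CPM in the input, 51.6 and 51.0 in IgG and 54.2 and 67.9 in the CPEB1 IP, a difference of 0.91 ± 0.19 in the CPEB1 IP (adjusted p = 0.00239, or 0.0998 without CPEB1 IP replicate 2). In IgG it was 0.60 ± 0.25 (adjusted p = 0.0492). The E2f4 call in IgG was lost under DESeq2 (adjusted p = 0.475) and with no filter on low counts (0.338). Leaving out any of the 4 libraries also ended it, with log2 differences from 0.57 to 0.61.

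Cdk4 was lower than input in IgG (-0.86 ± 0.17, adjusted p = 7.28e-05) and not detectably so in the CPEB1 IP (-0.30 ± 0.13, adjusted p = 0.0947). Cdk2, the partner of cyclin E, was called nowhere, with 62.9 and 54.2 CPM in the input, 43.3 and 51.7 in IgG and 46.2 and 48.7 in the CPEB1 IP. Ccne1 (cyclin E1) had 18 and 8 counts in the input, 0 and 2 in IgG and 10 and 23 in the CPEB1 IP, and passed the filter only in CPEB1 IP against input (0.21 ± 0.50, adjusted p = 0.780). Cdk6, E2f1 and E2f3 were called in no comparison.

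Among mitotic genes tested against input, Cdc25b was lower in the CPEB1 IP, with 29.8 and 29.9 CPM in the input, 13.7 and 11.97 in the CPEB1 IP and 18.99 and 16.8 in IgG (-1.18 ± 0.24, adjusted p = 0.00277, kept under all 9 alternatives). The other 6 tested in the CPEB1 IP were not called, among them Cdc20 (-0.91 ± 0.47), Ccna2 (-0.62 ± 0.48), Mki67 (-0.74 ± 0.49) and Top2a (0.00 ± 0.37). Standard errors near 0.5 on the log2 scale mean that differences of about 2-fold could not be told from none at these counts. With 2 libraries per group an exact permutation test of a single gene cannot go below p = 0.333, so calls rest on the spread that edgeR shares across genes.

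CPEs, the motif that CPEB1 binds, were searched in the annotated 3′ UTRs (GENCODE M21, GRCm38) as TTTTAT or TTTTAAT, written as DNA on the transcript's strand; neither string contains the other. A CPE lay in 29 of the 41 (70.7%, exact 95% binomial interval 54.5 to 83.9), in 12 of 19 replication genes, 9 of 10 G1/S regulators and 8 of 12 mitotic genes. The share over genes tested in CPEB1 IP against IgG was 66.8%, inside that interval. Of the 4 genes above IgG, Mcm4 held 3 CPEs, Rrm2 2, Cdk4 1 and Pcna 0, and of the 3 below IgG, Ccne2 held 4, Ccnb2 1 and E2f2 0. Among the mitotic genes, Ccna2 held 8, Ccnb1 4, Cdk1 and Cdc20 2 each, Ccnb2, Aurka, Aurkb and Top2a 1 each, and Cdc25b, Plk1, Bub1 and Mki67 0. The following windows hold the last CPE of the longest 3′ UTR, in capitals within at most 30 bases, for the CPE-bearing genes above IgG (Rrm2, Mcm4, Cdk4), those below IgG (Ccnb2, Ccne2) and 3 further genes, the cyclins Ccnb1 and Ccna2 with the most CPEs among mitotic genes and Mcm2 with the largest difference from input.
Rrm2, chr12:24713716-24713745, plus strand: tttttttttttTTTTAATgctcagtattat
Mcm4, chr16:15623969-15623998, minus strand: aatttcattaatTTTTATagatccttagat
Cdk4, chr10:127067243-127067272, plus strand: tactgggatcttTTTTATacaggaaaacaa
Ccnb2, chr9:70407860-70407889, minus strand: atcctgtatgtaTTTTATtctagtttacat
Ccne2, chr4:11204390-11204419, plus strand: taaacttaatcTTTTAATactgtttacttt
Ccnb1, chr13:100778775-100778804, minus strand: ctcatttgctgTTTTAATttatacatctga
Ccna2, chr3:36565316-36565345, minus strand: atagaaccagcTTTTAATgtatatttgaaa
Mcm2, chr6:88883490-88883519, minus strand: tgtagtttattTTTTAATagatttgaataa

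Further genes of the same pathways, from lists that do not overlap the 41, were read in the same way. Of 39 other replication genes, 25 were tested in CPEB1 IP against IgG, with a median log2 fold change of -0.23. By edgeR 0 were higher (3 at an unadjusted p under 0.05), beside 14.7% of all genes, and 6 or 24% were lower, beside 18.7%. DESeq2 called 2 of 38 higher and 3 lower, beside 13.6% and 5.12% of all genes. The 3 edgeR calls that differed most were Ticrr, an activator of origin firing (-3.05 ± 0.50), Pole, a DNA polymerase subunit (-2.57 ± 0.53), and Prim2, a primase subunit (-1.95 ± 0.46). All 3 reached the filter's level in both libraries of a group only in IgG, where they were high. Ticrr had 3 counts in each input library, 19 and 14 in IgG and 3 and 8 in the CPEB1 IP, and like Ccnb2 it was higher in IgG than in the input (3.64 ± 0.63, adjusted p = 1.2e-05).

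Of 43 other mitotic genes, 17 were tested: Bub3, a spindle checkpoint protein, was higher (0.65 ± 0.14, adjusted p = 0.000911) and 7 were lower, beside 18.7% of all genes, with a median of -0.70. DESeq2 called 2 of 43 higher and 2 lower. Bub3 had 132 and 124 CPM in the CPEB1 IP, beside 79.8 and 75.0 in IgG and 87.2 and 104 in the input. Cenpf, a kinetochore protein, had 4 and 5 counts in the input, 13 and 15 in IgG and 1 and 8 in the CPEB1 IP (-3.11 ± 0.53). Espl1, the separase protease (-2.88 ± 0.54), and Incenp, the scaffold of Aurora B (-1.69 ± 0.49), followed. Cenpf, Espl1 and Incenp likewise reached the filter's level in both libraries of a group only in IgG. Against input in the CPEB1 IP, 13 of 28 tested other replication genes were lower and 1 was higher, and 3 of 20 other mitotic genes were lower and 1 was higher, in the comparison where 15.8% of all genes were lower. DESeq2 called 4 of 22 replication genes and 1 of 11 mitotic genes lower, beside 12.1% of all genes. Gene length moved with the contrast of the precipitates: over the 12124 genes the Spearman correlation of summed exon length with the log2 fold change was -0.28, and over the 26 tested members -0.29, as a description across genes that share the same 4 libraries. For reference, the Cpeb1 transcript itself had 197 and 216 CPM in the CPEB1 IP, against 90.4 and 95.4 in IgG and 97.6 and 82.2 in the input (1.09 ± 0.12 over IgG, adjusted p = 2.5e-06).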

How the data were processed

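Reads were aligned to mm10 (GRCm38) with HISAT2 and counted per gene with featureCounts by the authors; the labels also name StringTie. The deposited files hold raw counts per gene, the gene length in bases (other) and FPKM that the authors computed with 1 total per library, larger than its counts on genes. What else that total holds is not given. Strand setting, treatment of multi-mapping reads and annotation release are not given in the sources used here, so reads of overlapping genes, antisense genes or near-identical copies could be shared.

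Counts were tested with edgeR (quasi-likelihood, TMM scaling, filterByExpr, 2 groups per fit, 55376 genes entered) and Benjamini-Hochberg adjustment at 0.05 over all genes tested. The filter keeps a gene that reaches a set level in as many libraries as a group holds. A gene low in either group can thus enter through the other alone. CPM in the text use TMM library sizes of all 6 libraries, whereas each log2 fold change comes from its 2-group fit. Alternatives were DESeq2, its size factors in edgeR, no filter, a replicate block, all libraries in 1 fit, each library left out, other pseudocounts and motif sets. Values in FPKM add a pseudocount of 1 only in the ratio. Genes described in full were those called in the CPEB1 IP plus a list of cyclins, MCM subunits and other known cell cycle genes. The members and lists were chosen with earlier results of these data known. Binomial intervals and the floor of 3 counts cover counting error only. The fitting steps were tested on simulated counts. Promoter windows are from RefSeq and 3′ UTRs from GENCODE M21, whose gene boundaries equal those of the files for all 41.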

Additional observations from a re-analysis of the deposited data

How the results depend on the processing

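No member called by edgeR changed direction under any alternative run. Calls kept under all 9 alternatives were 2 of 7 in CPEB1 IP against IgG (Rrm2, Ccnb2), 7 of 13 in CPEB1 IP against input and 7 of 12 in IgG against input. In CPEB1 IP against IgG, dropping the filter on low counts gave 9 genes higher and 1 lower in place of 4 and 3, and DESeq2 gave 1 lower. Over all genes, 14.7% were higher and 18.7% lower in the main fit, 8.36% and 5.56% without the filter, and 13.6% and 5.12% in DESeq2. Leaving out single libraries changed the members called, and each omission lowered the share called over all genes in both directions. In CPEB1 IP against input, the members called also changed under single omissions. There the share called over all genes fell without either CPEB1 IP library and rose without input replicate 2. In IgG against input, DESeq2 called 0 higher (1 at an unadjusted p under 0.05), beside 6.49% of all genes. The fit with no filter called 1 higher, beside 10.3%, where the main fit had 21.4%. Single omissions changed the members called, and each lowered the share called over all genes in both directions. An omission leaves an arm with 1 library, which is then assumed to vary like the other arm.

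The FPKM ratio criterion, met by 4 members and 1464 genes in all, gave 1 member with a pseudocount of 5 (673 genes in all) or with TMM library sizes (56 in all), and 1 to 4 members with single omissions (1017 to 1749 in all). The ratio of the replication to the mitotic median was 10.6 in the input, 7.87 in IgG and 11.0 in the CPEB1 IP, and with CPM in place of FPKM it was 10.01 in the input and 9.35 in the CPEB1 IP. Without Pcna, an alternative chosen after seeing the data as were the omissions for these 2 results, it was 10.2 and 9.23, and with single libraries it ran from 10.3 to 11.0 in the input, 6.25 to 9.49 in IgG and 10.7 to 11.4 in the CPEB1 IP. The labels do not say whether same-numbered libraries belong together, while the paper set each IP against the IgG of its own experiment. The correlations of same-numbered deviations were -0.01, -0.02 and 0.03 over 14276 genes. With 2 libraries per group these values cannot decide whether the libraries were paired. With the replicate block, members called higher and lower were 4 and 2 in CPEB1 IP against IgG, 3 and 9 in CPEB1 IP against input, and 4 and 8 in IgG against input, and the calls it ended were Ccne2 against IgG and Rrm2 against input. Over all genes the shares with the block were 14.3% and 18.4%, 15.9% and 14.8%, and 21.4% and 20.7%, in the same order. The filter on low counts left 5 of 12 mitotic genes untested in every comparison, against 1 of 19 replication genes and 0 of 10 G1/S regulators. The cause of the changes between settings was not tested.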
